A study of Mus musculus with 8 samples.

Results

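MHC class II genes encode the proteins that show fragments of engulfed material to CD4+ T cells. The 10 genes described here were taken by name from the count table of a mouse liver RNA sequencing series, which lists 49585 genes, and all 10 were present in it. They are the classical chains H2-Aa, H2-Ab1 and H2-Eb1, the invariant chain Cd74, the peptide-loading chains H2-DMa, H2-DMb1 and H2-DMb2, the loading modulators H2-Oa and H2-Ob, and Ciita, the transcriptional coactivator of class II genes. RNA was measured in whole livers of 8 males of 3 genotypes after 3 months on a high-fat, choline-deficient (HFCD) diet begun at 21 days of age, which loads the liver with lipid. The 3 LP245/+ livers carried Alb-CreTG and Trp53wm-R245W/+, an allele that makes wild-type p53 until Cre switches it to the R245W missense form. The 2 LPfl/+ livers carried Alb-CreTG and Trp53fl/+, an allele that Cre deletes. The 3 LP+/+ livers served as controls and are labelled Alb-Cre0, replicates 1 and 2 with Trp53fl/+ and replicate 3 with Trp53wm-R245W/+, so every mouse held 1 engineered Trp53 allele and the controls are labelled as having no Cre to act on it. The study's results instead describe the LP+/+ cohort as Cre carriers with unaltered p53, while its methods name littermates with or without Cre as controls. The labels were followed here, and under them each comparison with the controls contrasts the presence of Cre as well as the allele it acts on. Alb-Cre is driven by the albumin promoter and acts in hepatocytes and bile duct cells, so immune cells of all 8 livers kept both working Trp53 alleles. The strain was not given in the sources used here.

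In the classical pathway, an alpha and a beta chain pair in the endoplasmic reticulum with the invariant chain, which fills the peptide groove and sends the complex to endosomes. Proteases then trim the invariant chain, and H2-DM exchanges its last fragment for a peptide, a step that H2-O restrains. Dendritic cells, B cells and macrophages make these proteins at all times, other cells do so mainly under interferon gamma, and in liver the main carriers are Kupffer cells, dendritic cells, B cells and sinusoidal endothelium. In whole liver, more cells of such a type and more RNA per cell cannot be told apart.

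Libraries held between 26304526 and 31370714 counts, and levels are given as CPM, counts per 1000000 counts of the library after scaling by edgeR's TMM factors. By the library numbers in the labels there are 2 series. The first covers LP+/+ replicates 2 and 3 together with all LP245/+ livers, and the second covers LP+/+ replicate 1 and both LPfl/+ livers. LPfl/+ and LP245/+ livers thus share no series. As a check of the genotypes, Trp53 had 125 and 176 counts in LPfl/+ livers, 215 to 269 in LP+/+ livers and 190 to 306 in LP245/+ livers. Cdkn1a, a target of p53, had 74 and 99 counts in LPfl/+ livers, 144 to 195 in LP+/+ livers and 14 to 27 in LP245/+ livers. Hepatocyte markers such as Alb dominated in all 8 livers, summing over 5 genes to between 94059 and 138484 CPM, as the tissue label would have it.

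Of the members, 8 lie on chromosome 17 within 224.3 kb of the class II region, and Cd74 and Ciita lie on chromosomes 18 and 16 (GRCm38, GENCODE M21). H2-Aa is at chr17:34282744-34287823 on the minus strand, and H2-Eb1, at chr17:34305867-34316674 on the plus strand, is overlapped by the antisense gene Gm20513. Ciita, at chr16:10480059-10528418, shares bases with Dexi on the opposite strand, H2-DMa with Brd2 and H2-Oa with BC051537. The strand that was counted is not given in the sources used here, so reads in these overlaps could belong to either gene. H2-DMb1 and H2-DMb2 are near copies, with 94.7% of 1219 aligned transcript bases identical, and their counts are uncertain for that reason.

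Class II promoters are read by a complex of RFX, CREB and NF-Y on neighboring elements, and CIITA joins that complex without touching DNA. The element of NF-Y is the Y box, GATTGG on the coding strand. RefSeq promoter windows (250 bases before to 50 after the start, GRCm38.p6) were given for 7 members in 8 windows, namely H2-Aa, H2-Eb1, H2-DMa, H2-DMb1, H2-DMb2, H2-Oa and H2-Ob. The Y box was present on either strand in 7 of the 8 member windows and in 16.1% of all 32851 windows. AAC, letters within the X box that RFX reads, stood 24 to 27 bases before the Y box, searched on both strands and without overlap, in 6 of the 8 member windows and in 0.913% of all windows, and this distance was chosen after the member windows had been read. In H2-DMa the window held the Y box without AAC at that distance. The stretches below are shown because H2-Aa and H2-Eb1 differed from H2-DMb2 and H2-Ob in their pattern over the livers while carrying the same pair of elements. The pattern of H2-DMb2 and H2-Ob rests on 10 to 27 counts. H2-Oa, also shown, had 2 counts in 7 of 8 livers and so no readable pattern. Each stretch runs 5′ to 3′ on the coding strand, and capitals mark AAC and the Y box. They lie at chr17:34287861-34287920 (H2-Aa, minus strand), chr17:34305759-34305818 (H2-Eb1, plus strand), chr17:34145110-34145169 (H2-DMb2, plus strand), chr17:34092287-34092346 (H2-Oa, plus strand) and chr17:34238799-34238858 (H2-Ob, plus strand).
H2-Aa: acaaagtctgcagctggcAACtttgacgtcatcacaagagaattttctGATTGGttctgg
H2-Eb1: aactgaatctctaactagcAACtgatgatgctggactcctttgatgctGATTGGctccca
H2-DMb2: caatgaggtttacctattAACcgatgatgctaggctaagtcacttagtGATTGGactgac
H2-Oa: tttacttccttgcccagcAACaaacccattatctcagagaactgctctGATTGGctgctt
H2-Ob: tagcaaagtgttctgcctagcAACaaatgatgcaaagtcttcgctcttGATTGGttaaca

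The distance from AAC to the Y box was 27 bases in H2-Aa, H2-DMb2 and H2-Oa, 26 in H2-Eb1 and 24 in H2-Ob. The H2-DMb1 window also had both elements at 27 bases. A match of letters is a description of the window and not evidence of binding.

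Per kilobase of exon, Cd74 was by far the most abundant member. Its level was 31.2 ± 12.1 FPKM (FPKM is here CPM per kilobase of merged exons; SD, n = 8 livers), and it exceeded the next gene, H2-Ab1, 3.18- to 4.34-fold within every liver. H2-Ab1 (8.46 ± 4.33 FPKM), H2-Eb1 (7.73 ± 3.93 FPKM) and H2-Aa (6.33 ± 2.77 FPKM) formed a middle tier. H2-Ab1 was above H2-Eb1 in 7 of 8 livers with a median ratio of only 1.08, and H2-Eb1 was above H2-Aa in 8 of 8 livers with a median ratio of 1.17, so the neighbors in this tier were close compared with their spread over livers. The loading chains H2-DMb1 (1.29 ± 0.67 FPKM) and H2-DMa (0.82 ± 0.334 FPKM) stood clearly lower, H2-Aa exceeding H2-DMb1 at least 3.82-fold per length in every liver.

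The remaining members were scarce. H2-DMb2 reached 0.347 ± 0.114 FPKM and Ciita 0.263 ± 0.0678 FPKM, and their order was not stable, with H2-DMb2 above Ciita in 6 of 8 livers. H2-Ob had 0.132 ± 0.0344 FPKM, below Ciita in 8 of 8 livers. H2-Oa had 2 counts in 7 of 8 livers, under the 3 counts taken as the floor of detection, and 12 counts in LP+/+ replicate 3. H2-Oa did not pass the filter on low counts, so 9 of the 10 members were tested, and no fold change is given for it.

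**Figure D1:**
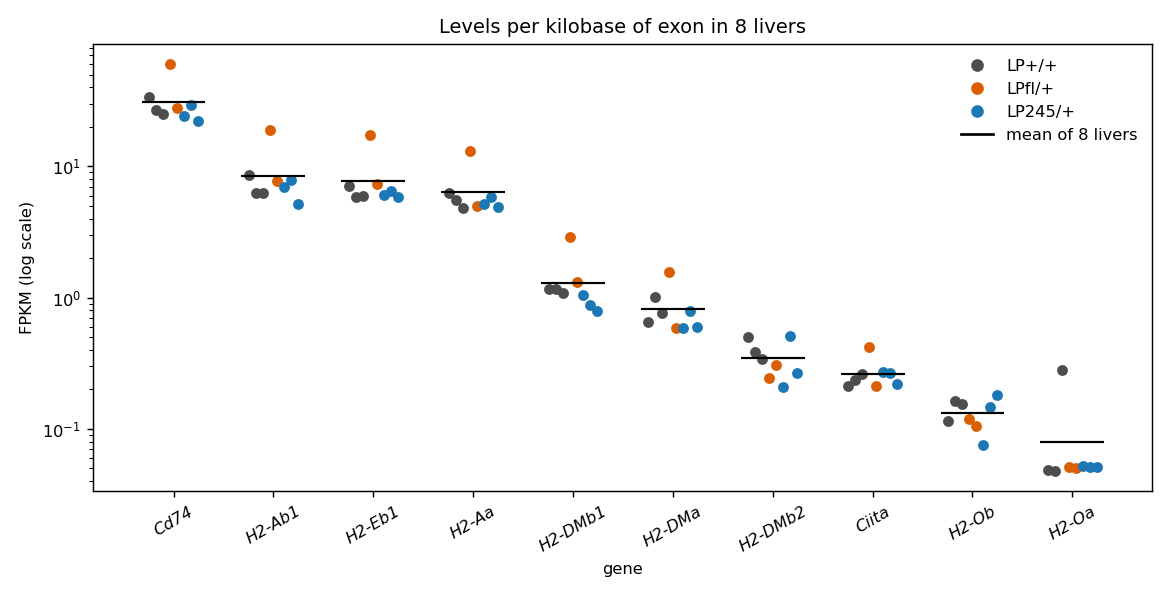
FPKM on a log axis for the 10 genes, ordered by their mean over 8 livers (bar), with a point for each liver colored by genotype. Cd74 leads at 31.2 FPKM, and 1 LPfl/+ liver is the highest point for the 6 most abundant genes and for Ciita.

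The proportions between partners within a liver varied little for Cd74 and more for the other chains. The ratio of Cd74 to H2-Aa counts lay between 2.0 and 2.44 in the 8 livers, with a median of 2.19. The ratio of H2-Eb1 to H2-Aa lay between 0.539 and 0.748, and that of H2-Ab1 to H2-Aa between 0.704 and 1.03. Over all 8 livers these 3 ratios spread 1.22-, 1.39- and 1.47-fold. Among the 7 livers other than LPfl/+ replicate 1, described next, the CPM of H2-Eb1 and H2-Aa spread only 1.27- and 1.29-fold, so their ratio was no steadier than the genes themselves, and the CPM of Cd74 and H2-Ab1 spread 1.53- and 1.67-fold. The loading chains were less even, the ratio of H2-DMb1 to H2-DMa counts running from 0.539 to 1.09.

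A single liver, LPfl/+ replicate 1, stood apart from the other 7 in most of the pathway. H2-Aa, the alpha chain of H2-A, had 1386 and 535 counts in LPfl/+ livers, 696, 625 and 554 in LP+/+ livers and 534, 617 and 524 in LP245/+ livers. LPfl/+ replicate 1 was 2.53 times the median CPM of the other livers, while those 7 differed among themselves by at most 1.29-fold. H2-Ab1, its beta chain, had 1351 and 553 counts in LPfl/+ livers, 650, 478 and 490 in LP+/+ livers and 485, 565 and 369 in LP245/+ livers. For H2-Ab1 the same liver stood at 2.72 times the median of the others.

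H2-Eb1, the beta chain of H2-E, had 942 and 400 counts in LPfl/+ livers, 404, 337 and 349 in LP+/+ livers and 318, 353 and 315 in LP245/+ livers. It showed the widest gap of all members, 2.89-fold over the median of the other livers and 2.36-fold over the next highest liver. The alpha chain of H2-E could not be followed, since its pseudogene entry H2-Ea-ps had 0 counts in all 8 livers, and a count of 0 allows at most 3 counts, or 0.0956 to 0.114 CPM. Cd74, which encodes the invariant chain, had 2811 and 1307 counts in LPfl/+ livers, 1683, 1341 and 1275 in LP+/+ livers and 1107, 1379 and 1046 in LP245/+ livers. LPfl/+ replicate 1 again held the top value, 2.23 times the median of the others.

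Of the loading chains, H2-DMa had 151 and 57 counts in LPfl/+ livers, 66, 103 and 80 in LP+/+ livers and 55, 76 and 58 in LP245/+ livers. H2-DMb1 had 136 and 62 counts in LPfl/+ livers, 58, 58 and 55 in LP+/+ livers and 48, 41 and 37 in LP245/+ livers. Both were highest in LPfl/+ replicate 1, at 2.41 and 2.68 times the median of the other livers. Ciita had 112 and 57 counts in LPfl/+ livers, 60, 67 and 76 in LP+/+ livers and 70, 71 and 59 in LP245/+ livers, and LPfl/+ replicate 1 was at 1.78 times the median of the others. The other 7 livers lay within 1.26-fold of each other for Ciita.

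The near copy H2-DMb2 and the H2-O chains were not higher in LPfl/+ replicate 1. H2-DMb2 had 12 and 15 counts in LPfl/+ livers, 26, 20 and 18 in LP+/+ livers and 10, 25 and 13 in LP245/+ livers, which placed LPfl/+ replicate 1 at 0.721 of the median of the others. H2-Ob had 18 and 16 counts in LPfl/+ livers, 18, 26 and 25 in LP+/+ livers and 11, 22 and 27 in LP245/+ livers, with LPfl/+ replicate 1 at 0.816 of that median. Counts of 10 to 27 allow a coarse reading of these genes at most.

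**Figure D2:**
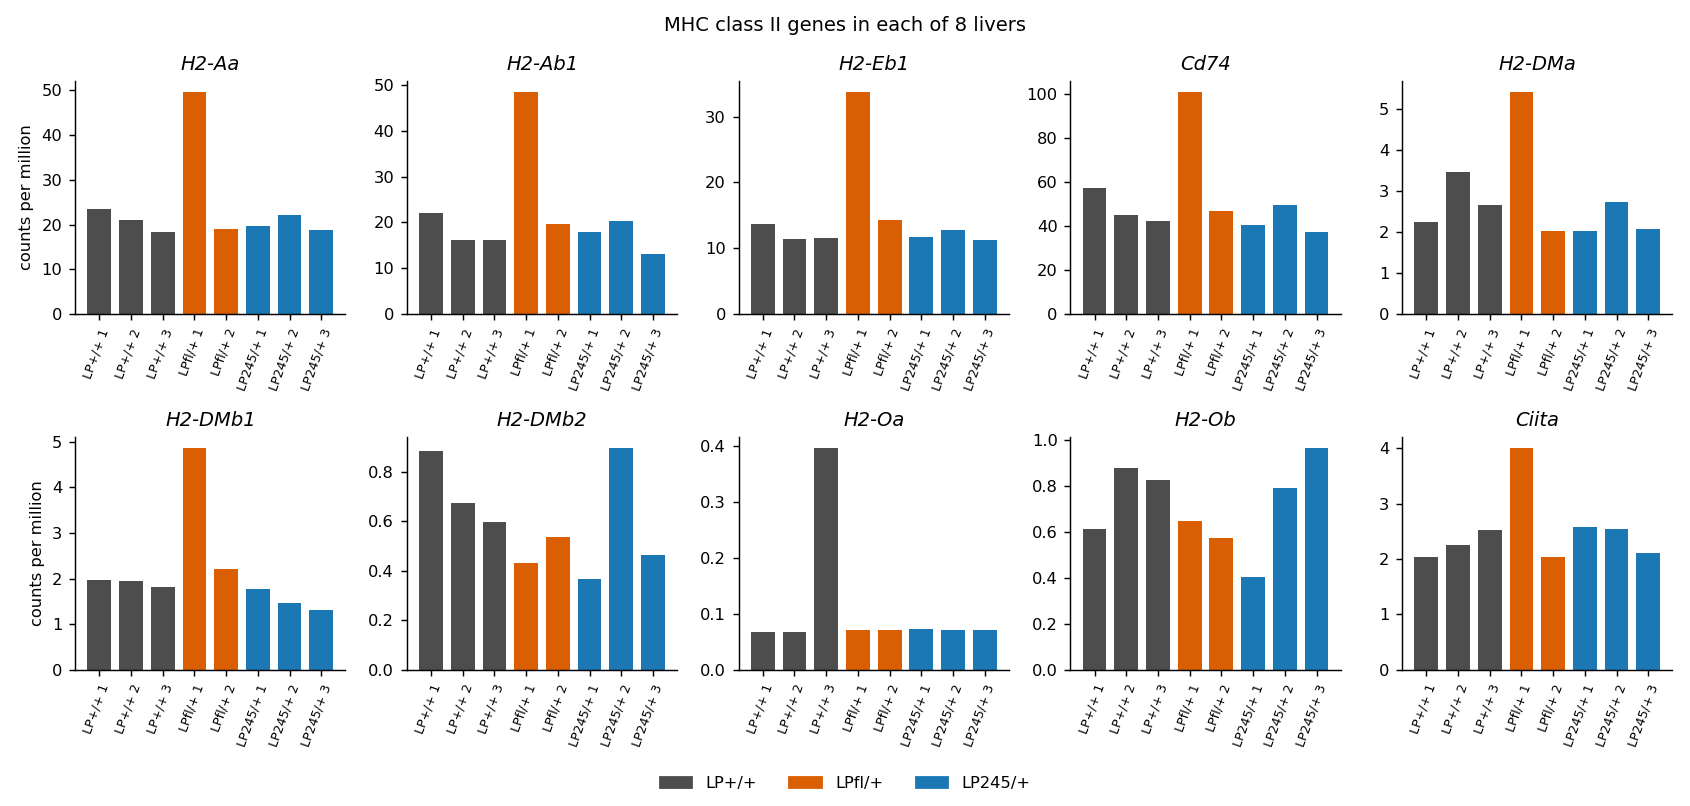
TMM-scaled CPM of each gene (vertical axis from 0, a scale of its own for each gene) in the 8 livers, colored by genotype. LPfl/+ replicate 1 is the tallest bar for H2-Aa, H2-Ab1, H2-Eb1, Cd74, H2-DMa, H2-DMb1 and Ciita, with H2-Aa at 49.6 CPM against 18.3 to 23.6 CPM elsewhere, and not for H2-DMb2, H2-Oa or H2-Ob.

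LPfl/+ replicate 1 held the highest value of 7 of the 9 tested members, against 11.9% of all 16496 tested genes, and it was at least 1.5 times the median of the other livers for 7 members, against 8.57% of all tested genes. The corresponding share of all genes ran from 4.15% to 9.27% in the other livers, so this library was not the most divergent one as a whole. In the other livers between 0 and 1 of the 9 members reached 1.5 times. LPfl/+ replicate 2 lay at a median of 0.907 over the members.

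The question put to the genotypes was whether R245W or the loss of 1 Trp53 allele in hepatocytes changed these genes. In LP245/+ compared with LP+/+, no member passed the test. The quasi-likelihood test of edgeR was adjusted over all tested genes by the Benjamini-Hochberg method. By it, 0 of 9 members had an adjusted p of at most 0.05 (0.00606% of all tested genes did). An unadjusted p below 0.05 was found for 0 members (5.93% of all genes had one). DESeq2 called 0 members and 19 of 30212 genes. The log2 fold changes ran from -0.33 for H2-DMb1 to 0.09 for Ciita, with a median of -0.10 beside 0.00 over all genes. H2-Aa averaged 20.2 ± 1.77 CPM in LP245/+ (SD, n = 3) and 21.0 ± 2.65 CPM in LP+/+ (SD, n = 3), a log2 fold change of -0.06 with a 95% interval from -0.68 to 0.56. Cd74 averaged 42.5 ± 6.26 and 48.2 ± 7.92 CPM (SD, n = 3 each), a log2 fold change of -0.18 with an interval from -0.73 to 0.37. Intervals of this width do not show that the genotypes were alike. H2-DMb1 was the single member whose genotypes did not overlap, at 1.52 ± 0.223 CPM in LP245/+ and 1.91 ± 0.0823 CPM in LP+/+ (SD, n = 3 each), where 11.6% of all genes did not overlap, and its adjusted p was 0.883 (edgeR). Within the first library series, 4 of the 9 tested members were higher and 5 lower in LP245/+ than in LP+/+, with a median log2 ratio of -0.04.

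In LPfl/+ compared with LP+/+, the members leaned upward without passing the test. The fold changes were positive for 7 of 9 members, with a median log2 fold change of 0.61 beside 0.00 over all genes. H2-Eb1 averaged 12.3 ± 7.07 FPKM in LPfl/+ (SD, n = 2) and 6.28 ± 0.676 FPKM in LP+/+ (SD, n = 3), a log2 fold change of 0.98 (SE 0.28) with an adjusted p of 0.697 (edgeR). The log2 fold change was 0.91 (SE 0.32) for H2-Ab1, 0.89 (SE 0.31) for H2-DMb1, 0.71 (SE 0.30) for H2-Aa and 0.61 (SE 0.27) for Cd74. These 5 genes had an unadjusted p below 0.05, where 6.89% of all genes did. With edgeR or with DESeq2, 0 members had an adjusted p of at most 0.05. Over all genes, 0.0% did with edgeR and 12 of 30212 with DESeq2. H2-DMa had a log2 fold change of 0.42 (SE 0.37) and Ciita of 0.41 (SE 0.29), H2-DMb2 of -0.57 (SE 0.45) and H2-Ob of -0.34 (SE 0.41). The genotypes did not overlap for H2-Eb1 and H2-DMb1, which were higher in LPfl/+, and for H2-DMb2, which was lower, against 24.9% of all genes.

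That lean came from 1 of the 2 LPfl/+ livers. Without LPfl/+ replicate 1 the median log2 fold change of the members was -0.15, and 3 of 9 were positive. Without LPfl/+ replicate 2 the median was 1.05, and the log2 fold change of H2-Eb1 was 1.45. Each of these fits leaves 1 LPfl/+ liver and borrows the spread of the other groups, so only fold changes are given. Within the second library series, LPfl/+ replicate 1 exceeded LP+/+ replicate 1 by a median log2 ratio of 1.07 over the 9 members, and LPfl/+ replicate 2 differed from it by a median of -0.14.

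In LP245/+ compared with LPfl/+, the same liver set the direction. The log2 fold change was -1.22 (SE 0.32) for H2-DMb1, -1.02 (SE 0.28) for H2-Eb1, -0.99 (SE 0.32) for H2-Ab1, -0.79 (SE 0.27) for Cd74 and -0.77 (SE 0.30) for H2-Aa. These 5 had an unadjusted p below 0.05, where 8.51% of all genes did. The smallest adjusted p was 0.362, for H2-DMb1 (edgeR), 0 members had an adjusted p of at most 0.05 (0.0% of all genes did), and H2-Eb1 and H2-DMb1 did not overlap, against 25.4% of all genes. The median over the members was -0.77, and it was 0.08 without LPfl/+ replicate 1. DESeq2 called 1 member, H2-Eb1, with an adjusted p of 0.0424, among 95 of 30212 genes called. Without LPfl/+ replicate 1 its log2 fold change in edgeR was -0.26. The LPfl/+ livers enter both of the last comparisons, so these are not separate pieces of evidence, and the library series cannot be told apart from the genotypes in the last one.

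**Figure D3:**
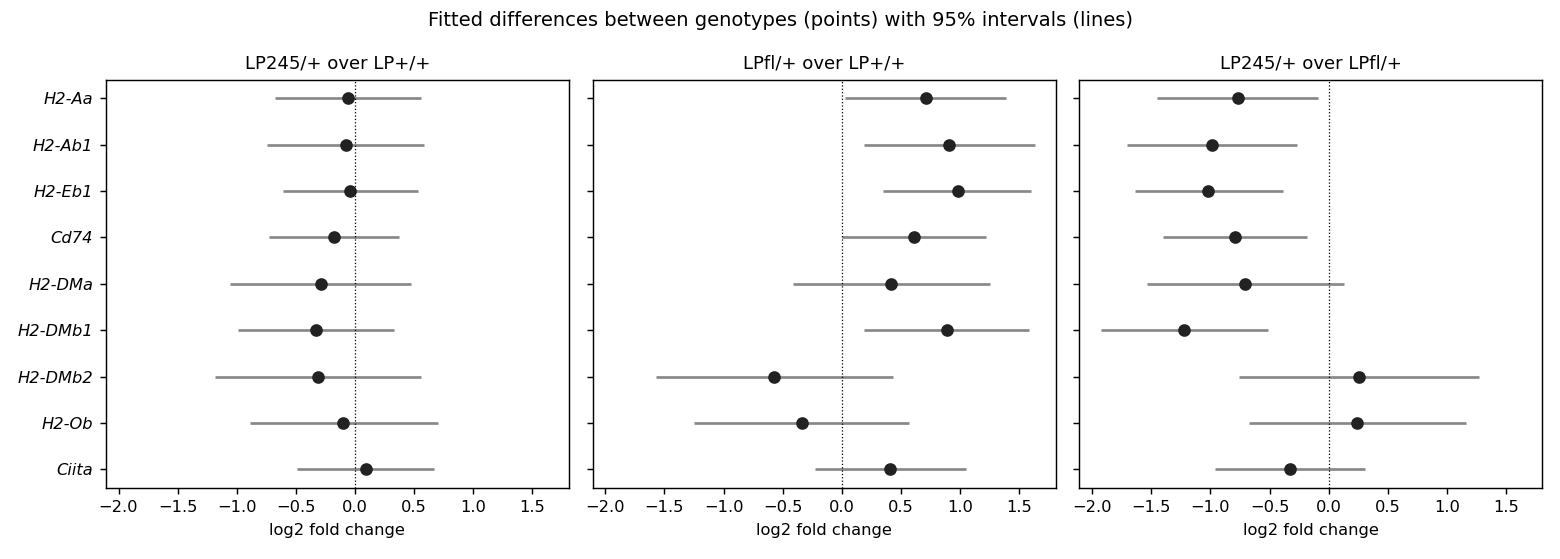
Log2 fold changes (points) with 95% intervals (lines) of the 9 tested genes in the 3 comparisons, from edgeR's fit of all 8 livers. All intervals cross 0 for LP245/+ over LP+/+. H2-Aa, H2-Ab1, H2-Eb1, H2-DMb1 and Cd74 lie off 0 in both comparisons that use the 2 LPfl/+ livers, where 0 genes passed the adjusted test. For Cd74 in LPfl/+ over LP+/+ the lower end nearly touches 0, with an unadjusted p of 0.0486 (edgeR).

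Of 7 genes for the promoter complex that CIITA joins (Rfx5, Rfxap, Rfxank, Nfya, Nfyb, Nfyc and Creb1), 0 passed the adjusted test in any comparison. Nfya, the DNA-binding subunit of NF-Y, had 222 and 230 counts in LPfl/+ livers, 258, 340 and 293 in LP+/+ livers and 438, 367 and 282 in LP245/+ livers, a log2 fold change of 0.70 (SE 0.20) in LP245/+ compared with LPfl/+ with an adjusted p of 0.398 (edgeR). Nfyb, its partner, had a log2 fold change of 0.30 there, and Creb1 one of 0.23 in LP245/+ compared with LP+/+, both with an unadjusted p below 0.05. Over the list, LPfl/+ replicate 1 stood at 0.932 of the summed CPM of the other livers' median, and their sum was thus not higher in that liver.

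Interferon gamma, acting through its receptor and JAK kinases, induces Ciita. Of 12 genes on that list, 9 were tested, and 0 had an unadjusted p below 0.05 in any comparison. Ifng itself had 2 and 4 counts in LPfl/+ livers, 0 in LP+/+ livers and 5, 0 and 0 in LP245/+ livers. For Irf1, a transcription factor induced by interferon gamma, LPfl/+ replicate 1 stood at 1.36 times the median of the others.

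Among the 13 endosomal genes, 0 passed the adjusted test. Lgmn, the asparaginyl protease legumain, and Ctss, the cathepsin that makes the last cut of the invariant chain, had an unadjusted p below 0.05 in LP245/+ compared with LPfl/+, with log2 fold changes of -0.34 (SE 0.09) and -0.55 (SE 0.21). Lgmn also had a log2 fold change of -0.23 (SE 0.08) in LP245/+ compared with LP+/+, with an adjusted p of 0.795 (edgeR). Lgmn had 1942, 2106 and 1980 counts in the LP245/+ livers, 2618 and 2530 in the LPfl/+ livers and 2457, 2579 and 2582 in the LP+/+ livers, so its 3 LP245/+ livers lay below the other 5. On this list 1 of 13 genes did not overlap between LP245/+ and LP+/+, against 11.6% of all genes. Between LP245/+ and LPfl/+ 2 of 13 did not, against 25.4% of all genes. Ctss was highest in LPfl/+ replicate 1, with 1505 counts, at 1.66 times the median of the others, and 689 to 1294 counts elsewhere. The list as a whole stood nearer to the other livers than Ctss did, its summed CPM in LPfl/+ replicate 1 being 1.06 times their median. The median ratio over the 13 genes was 1.11, and 3 of them were highest there.

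Of 9 genes for turnover and costimulation, 8 were tested and 0 had an unadjusted p below 0.05. Their summed CPM in LPfl/+ replicate 1 was 1.05 times the median of the others, and 4 of the 8 were highest there, with ratios from 0.792 for Icosl to 2.06 for Cd274. March1, the ubiquitin ligase that removes class II from the surface of resting cells, had 149 and 107 counts in LPfl/+ livers, 129, 106 and 130 in LP+/+ livers and 122, 129 and 118 in LP245/+ livers. Cd274, which encodes the checkpoint ligand PD-L1, had 114 counts in LPfl/+ replicate 1 and 38 to 82 elsewhere. Cd86, a costimulatory ligand, had 177 counts there and 122 to 161 elsewhere.

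Neighbors in the class II region and class I genes showed smaller ratios in LPfl/+ replicate 1 than the classical members. Of 9 other genes of the region in the table, 5 were tested, and H2-Ea-ps and H2-Pa had 0 counts in all livers. Of these 5, 4 were highest in LPfl/+ replicate 1, namely Psmb9, Psmb8, Tap1 and Tap2 at 1.51, 1.44, 1.43 and 1.35 times the median of the others, while Brd2 stood at 0.80. Tap1, a subunit of the peptide transporter for class I, had 1012 counts in LPfl/+ replicate 1 and 446 to 766 elsewhere, and its log2 fold change in LP245/+ compared with LPfl/+ was -0.70 (SE 0.22) with an adjusted p of 0.45 (edgeR). Psmb8, an immunoproteasome subunit, had a log2 fold change of -0.38 (SE 0.17) in the same comparison. Of 13 class I genes, Nlrc5, the coactivator of class I genes, was the one with an unadjusted p below 0.05, with a log2 fold change of 0.41 (SE 0.15) in LPfl/+ compared with LP+/+ and of -0.46 (SE 0.15) in LP245/+ compared with LPfl/+. The summed class I level of LPfl/+ replicate 1 was 1.03 times the median of the other livers, a sum dominated by B2m (0.97) and H2-Q10 (0.894), and the median ratio over the 13 genes was 1.19. Both the sum and the median ratio were 2.41 for the class II members.

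Markers of the cells that carry class II were read beside this liver. Kupffer cell markers summed to 437 and 607 CPM in LPfl/+ livers, 450 to 513 in LP+/+ livers and 379 to 458 in LP245/+ livers, and 8 of 10 were highest in LPfl/+ replicate 1, the list at 1.35 times the median of the others. C1qc, C1qb, C1qa and Vsig4, all genes of resident macrophages, had an unadjusted p below 0.05 in LP245/+ compared with LPfl/+, with log2 fold changes of -0.49, -0.45, -0.41 and -0.33. Genes of all leukocytes, such as Ptprc (CD45), summed to 52.2 and 70.8 CPM in LPfl/+ livers, 47.0 to 60.7 in LP+/+ livers and 47.2 to 50.7 in LP245/+ livers, with 5 of 6 highest in LPfl/+ replicate 1 and the list at 1.41 times. These ratios were smaller than the 2.41 times of the class II members, and their part in the class II result was not tested.

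Dendritic cell and B cell markers did not follow. Dendritic cell markers summed to 18.2 and 19.6 CPM in LPfl/+ livers, 14.9 to 18.7 in LP+/+ livers and 16.9 to 20.2 in LP245/+ livers, with 1 of 8 tested genes highest in LPfl/+ replicate 1 and the list at 0.981 of the median of the others. Siglech, a marker of plasmacytoid dendritic cells, had a log2 fold change of 0.61 (SE 0.26) in LP245/+ compared with LP+/+ with an unadjusted p below 0.05. B cell markers summed to 4.71 and 5.08 CPM in LPfl/+ livers, 6.05 to 7.01 in LP+/+ livers and 4.45 to 7.51 in LP245/+ livers, with LPfl/+ replicate 1 at 0.841. Cd79b and Pax5, a chain of the B cell receptor and a B cell transcription factor, had log2 fold changes of -0.92 (SE 0.30) and -1.12 (SE 0.44) in LPfl/+ compared with LP+/+, with adjusted p of 0.697 and 0.704 (edgeR). H2-Ob, which B cells express, had the value of -0.34 given above.

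T and NK cell markers other than Cd4 had at most 22 counts in any liver, and the list summed to 4.50 and 4.94 CPM in LPfl/+ livers, 3.14 to 6.73 in LP+/+ livers and 2.33 to 5.25 in LP245/+ livers, with LPfl/+ replicate 1 at 1.47 times the median of the others. LP+/+ replicate 1 was higher on this list, at 2.0 times. Sinusoidal endothelial markers stood at 0.715 in LPfl/+ replicate 1 and were lower there than in any other liver, and monocyte and lipid-associated macrophage markers stood at 0.894, bile duct markers at 0.92 and hepatocyte markers at 0.909. No marker on these lists was at 0 in all livers.

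**Figure D4:**
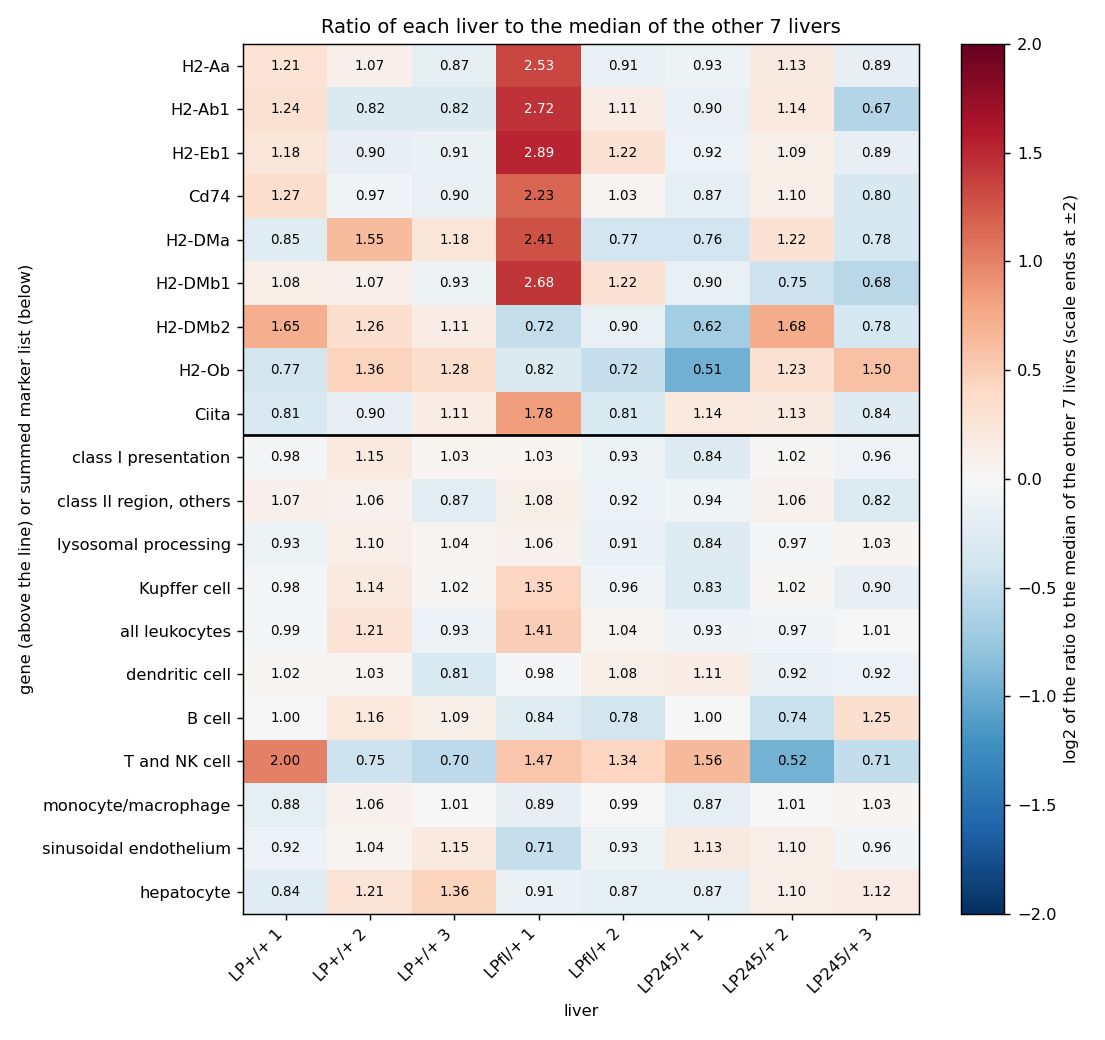
Ratio of each liver's CPM to the median of the other 7 livers, printed in each cell and colored on a log2 scale, for the 9 tested genes above the line and for the summed CPM of marker lists below it. The column of LPfl/+ replicate 1 is at 1.78 to 2.89 for 7 of the 9 genes, and at 1.35 for Kupffer cell and 1.41 for leukocyte markers.

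Each member was also compared with the mean log2 CPM of H2-Aa, H2-Ab1, H2-Eb1 and Cd74 over the 8 livers, leaving itself out of the mean. These correlations are descriptions, since all livers share the scaling and LPfl/+ replicate 1 carries much of each value. The 4 classical genes had Pearson's r between 0.97 and 0.98, and between 0.72 and 0.94 over the 7 livers without LPfl/+ replicate 1. H2-DMb1 had r of 0.93, Ciita of 0.83 and H2-DMa of 0.81. Without LPfl/+ replicate 1 these were 0.47, -0.24 and 0.00. The other 7 livers spread only 1.26-fold for Ciita. For H2-DMa they spread 1.72-fold, more than the 1.27- to 1.67-fold of the classical genes. With 7 livers, these values cannot tell whether the genes vary together. H2-DMb2 had r of -0.14 over 8 livers, with a Spearman's rank correlation of 0.26, and r of 0.73 without LPfl/+ replicate 1. It had only 10 to 26 counts in those 7 livers, uncertain ones because of its near copy. The change in r thus allows a coarse reading at most. H2-Oa and H2-Ob had r of -0.23 each, and of -0.32 and -0.39 without LPfl/+ replicate 1.

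Outside the 10 genes, those most like this mean among 12850 genes with a mean of at least 1 CPM were Mpzl2, Arhgap24, Zfp512, Rassf5, Arhgap30, Fbxl21, Gnpda2, Aspg, Disp2 and Pign, with r from 0.91 to 0.98 over 8 livers. Mpzl2, an adhesion protein of epithelia, had 637 and 420 counts in LPfl/+ livers, 496, 429 and 417 in LP+/+ livers and 390, 466 and 383 in LP245/+ livers. It kept the order of the class II mean in all livers (Spearman's rank correlation 1.0), and r was 0.94 without the 2 livers farthest from the median, LPfl/+ replicate 1 and LP245/+ replicate 3. Rassf5, a Rap1 and Ras effector of leukocytes, had a rank correlation of 0.95 and r of 0.87 without those livers. Arhgap24, a GTPase-activating protein, had a rank correlation of 0.86 and r of 0.65. For Zfp512, Arhgap30, Fbxl21, Gnpda2, Aspg, Disp2 and Pign, r without those livers lay between 0.18 and 0.77, with rank correlations from 0.33 to 0.83, and the likeness of the lowest of them, Aspg, rested on LPfl/+ replicate 1. None of the 10 was among the 10 most alike once LPfl/+ replicate 1 was left out.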

How the data were processed

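Whole-liver RNA of 8 male mice was sequenced. The authors deposited raw read counts per gene, made from stranded total RNA libraries (TruSeq) and paired-end HiSeq reads aligned to GRCm38 with STAR. The annotation release and the strand counted are not given in the sources used here. Symbols were matched by gene ID to GENCODE M21 (49326 of 49585). All 8 columns were matched to labels.

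Genotypes were compared with edgeR 4.0.16 in R 4.3.3 (TMM, filterByExpr, quasi-likelihood F test, all 8 livers in 1 fit), with Benjamini-Hochberg adjustment over 16496 genes. A member was called at an adjusted p of at most 0.05. Neither the labels nor the correlations of equally numbered livers (-0.107 to 0.0621) pair the samples, so the fit was unpaired. FPKM was TMM-scaled CPM per kilobase of merged exons. Likeness used log2 of CPM plus 0.5. The scripts were tested on simulated data. Nothing says how many mice were littermates, so p-values measure the spread between these livers. Sampling floors cover counting error only.

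The 10 genes, the other lists and the rule for naming genes were chosen with earlier results of these data known. From each list, up to 4 genes with the smallest p among those with an unadjusted p below 0.05 were named. Irf1, March1, Cd274, Cd86, Icosl, Psmb9, Tap2, Brd2, B2m, H2-Q10, Ptprc, Alb and Ifng were named after their values were seen, and some items are not reported here. Alternatives were DESeq2 1.42.0, other size factors and filters, 2 genotypes only, library series, replicate number and leaving out each liver. Plots were drawn with Python 3.11.15 and matplotlib 3.10.9.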

Additional observations from a re-analysis of the deposited data

How the results depend on the processing

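No member was called by edgeR in any of the 3 comparisons, and in LP245/+ compared with LP+/+ the count was 0 under every alternative run. In LPfl/+ compared with LP+/+ the number of members called was 0 in every fit that kept both LPfl/+ livers. Of all genes, at most 72 of 16311 were called in those fits. In LP245/+ compared with LPfl/+ the number of members called was 1 with DESeq2 (H2-Eb1) and 2 without the filter on low counts (H2-Ab1 and H2-Eb1). Calls over all genes rose as well, from 0 of 16496 to 95 of 30212 with DESeq2 and to 177 of 30240 without the filter. When a liver other than the LPfl/+ ones was left out, 0 members and at most 57 of 16311 genes were called there. With the library series as a covariate, 0 members were called in all 3 comparisons, where 3, 3 and 10 of 16496 genes were. The median log2 fold change of the members was then -0.04, 0.57 and -0.54. Under this covariate 0 members had an unadjusted p below 0.05 in each comparison, where 6.65%, 5.37% and 5.27% of all genes did. In the main fit 5 members did in each of the last 2. LP+/+ replicate 1 is the only control of the second series, so the fit links the series through that liver alone. The median ran from -0.23 to -0.04 for LP245/+ against LP+/+, from -0.15 to 1.05 for LPfl/+ against LP+/+ and from -1.24 to 0.08 for LP245/+ against LPfl/+ over the fits that left out 1 liver, the extremes of the last pair coming from the LPfl/+ livers.

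Equally numbered livers did not deviate together. With the replicate number as a replicate block, 0 members were called in each comparison, and the medians were -0.13, 0.47 and -0.62.

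Of 405 refitted fold changes of single members, 363 moved by less than the spread between livers, 5 gained an adjusted p of at most 0.05 and 18 changed sign, none of them called. Of the 10 genes most like the class II mean, 2 were shared with Spearman's rank correlation, 3 with deviations from the genotype means and 0 without LPfl/+ replicate 1, an alternative chosen after seeing the data. Levels per length kept the rank of 8 of 10 members with the longest transcript in place of merged exons, H2-DMb2 and Ciita changing places. With 2 LPfl/+ livers of unlike level, the fitted value describes neither. Counts of 10 to 27 for H2-DMb2 and H2-Ob limit what could be seen of them.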
